A study of Mus musculus with 2 samples.

Results

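Mir26a-1, Mir26a-2 and Mir26b are the 3 mouse genes that encode the miR-26 family, out of 2202 microRNA genes counted. They were found by symbol in GENCODE M21 and were chosen from the counts of these same libraries, among them the difference of Mir26a-1 between the replicates, so their levels and ratios are given as a description without a test. MicroRNA-seq was performed on total RNA from a layer of hippocampus of male B6CASTF1/J mice, a first-generation hybrid of C57BL/6J with CAST/EiJ, aged 36 days. The series holds 1 group of 2 libraries, biological replicate 2 and biological replicate 1, with no treatment and no second genotype. The replicates are separate tissue samples that carry the same donor label, so the spread between them may be partly technical.

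The members of the miR-26 family are processed from hairpins that lie in introns of the Ctdsp genes. Each hairpin has a 5p arm, which holds the main mature product, and a 3p arm. An Argonaute protein carries the mature strand and pairs its seed, bases 2 to 8, with matching sites in messenger RNAs, which are then repressed. The host genes Ctdspl, Ctdsp2 and Ctdsp1 encode small phosphatases of the RNA polymerase II C-terminal domain that act with REST, a repressor of neuronal genes in cells that are not neurons. In zebrafish, miR-26b was reported to repress its own host ctdsp2 as neural progenitors turn into neurons, and in mammals Ezh2 is among the reported targets of miR-26a.

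The mature sequences are shown first, because what the counts can measure depends on them. All 3 genes matched RefSeq (GRCm38.p6), and capitals mark the seed:
miR-26a-5p, from both Mir26a-1 and Mir26a-2: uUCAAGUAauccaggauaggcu
miR-26b-5p: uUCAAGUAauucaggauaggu
miR-26a-1-3p: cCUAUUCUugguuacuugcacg
miR-26a-2-3p: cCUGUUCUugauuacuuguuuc
miR-26b-3p: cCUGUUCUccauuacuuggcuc

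The 5p products share the seed UCAAGUA, and among 1022 genes with a mature sequence in the RefSeq table only these 3 carry it on either arm. With the shorter seed of bases 2 to 7 Mir6371 on chromosome 6 is added, which had 0 counts in replicate 2 and 0 in replicate 1. Counted from the 5′ end, miR-26b-5p differs from miR-26a-5p over its 21 bases by C11U and C21U, both outside the seed. The 3p products differ more. Between miR-26a-1-3p and miR-26a-2-3p 6 of 22 bases differ, of which A4G falls in the seed, and the others are G11A, C19U, A20U, C21U and G22C. Between miR-26a-2-3p and miR-26b-3p 4 of 22 differ (U9C, G10C, U19G and U20C), which leaves their seed CUGUUCU the same. Mir6932 and Mir7039 also carry CUGUUCU, whereas CUAUUCU was found in Mir26a-1 alone.

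The hairpins are printed with both mature arms in capitals:
Mir26a-1 (chr9:119031796-119031885, plus strand): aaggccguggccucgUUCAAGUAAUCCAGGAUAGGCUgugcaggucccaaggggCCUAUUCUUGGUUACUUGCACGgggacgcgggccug
Mir26a-2 (chr10:126995530-126995613, plus strand): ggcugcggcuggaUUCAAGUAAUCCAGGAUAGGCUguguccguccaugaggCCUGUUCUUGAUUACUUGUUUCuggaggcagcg
Mir26b (chr1:74394310-74394394, plus strand): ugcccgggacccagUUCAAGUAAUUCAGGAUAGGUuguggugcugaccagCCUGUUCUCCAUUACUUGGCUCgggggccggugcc

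Aligned end to end with both arms included, Mir26a-1 and Mir26a-2 match at 66 of 91 positions (72.5%), Mir26a-1 and Mir26b at 64 of 93 (68.8%), and Mir26a-2 and Mir26b at 62 of 92 (67.4%). The GC content is 60.0% in Mir26a-1, 53.6% in Mir26a-2 and 58.8% in Mir26b. The longest stretch common to Mir26a-1 and Mir26a-2 is 25 bases, begins at the first base of miR-26a-5p and runs 3 bases past its end:
shared by Mir26a-1 and Mir26a-2: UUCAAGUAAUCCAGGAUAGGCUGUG
The longest stretch that Mir26b shares is 11 bases with Mir26a-1 and 10 bases with Mir26a-2.

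This stretch decides which reads can be assigned to a Mir26a gene. A read inside it matches both genes without a mismatch, and the deposited counts hold reads that match several places in a line of their own that names no gene. A full-length miR-26a-5p read is therefore not assignable to either gene by sequence. Cut into overlapping windows of 20 bases, the Mir26a-1 hairpin has 65 of 71 windows (91.5%) found in no other annotated microRNA gene, Mir26a-2 has 59 of 65 (90.8%) and Mir26b 66 of 66 (100%). Of the windows that lie wholly in the 5p arm, 0 of 3 were unique for Mir26a-1, 0 of 3 for Mir26a-2 and 2 of 2 for Mir26b. In the 3p arm 3 of 3 were unique for each gene. Where the aligner, whose settings are not given, set aside every read that fits both places, the counts of the Mir26a genes come from reads that hold bases outside the shared stretch, such as 3p reads or 5p reads with extra bases, while those of Mir26b can come from either arm. The counts are per gene, so the arms were not separated, and the rest of the genome was not looked at for further copies.

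**Figure D1:**
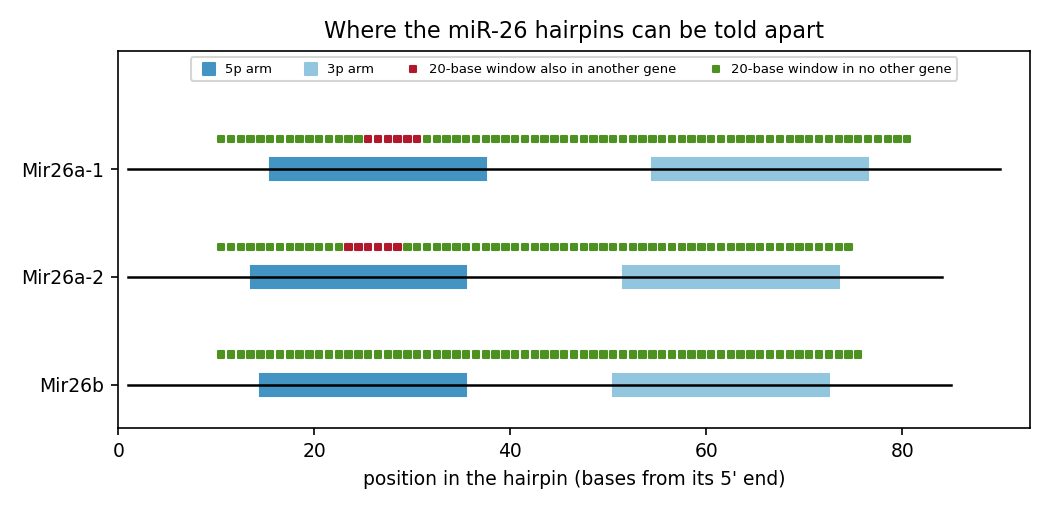
The 3 miR-26 hairpins drawn to scale by position in bases, with the 5p arm in dark blue, the 3p arm in light blue and a square at the middle of each 20-base window, red where the window also occurs in another microRNA gene. The red windows, 6 of 71 in Mir26a-1 and 6 of 65 in Mir26a-2, sit over the 5p arm, and Mir26b has 0.

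The 3 hosts keep the same place for the hairpin. In the annotated transcript with the most exons, Mir26a-1 lies in intron 5 of 7 of Ctdspl, Mir26a-2 in intron 5 of 7 of Ctdsp2, and Mir26b in intron 4 of 6 of Ctdsp1. In all 3 transcripts the exon before that intron has 57 bases and the exon after it 93 bases. The introns differ in length. The Ctdspl intron has 3283 bases, with Mir26a-1 1543 bases from the exon before it and 1650 bases from the exon after it. The Ctdsp2 intron has 1946 bases, with Mir26a-2 near its far end, 1621 bases from the exon before and 241 bases from the exon after. The Ctdsp1 intron has 564 bases, with Mir26b 234 bases from the exon before and 245 bases from the exon after. Measured from the start of the host gene, Mir26a-1 lies 105343 bases in, Mir26a-2 16813 bases in and Mir26b 2801 bases in. Shorter annotated transcripts of Ctdsp2 begin at position 126995613, the last base of the Mir26a-2 hairpin, so Mir26a-2 overlaps an exon by 1 base there. The remaining gene of the host family, Ctdspl2 on chromosome 2, holds no annotated miR-26 gene. Host messenger RNA was not measured in these libraries.

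**Figure D2:**
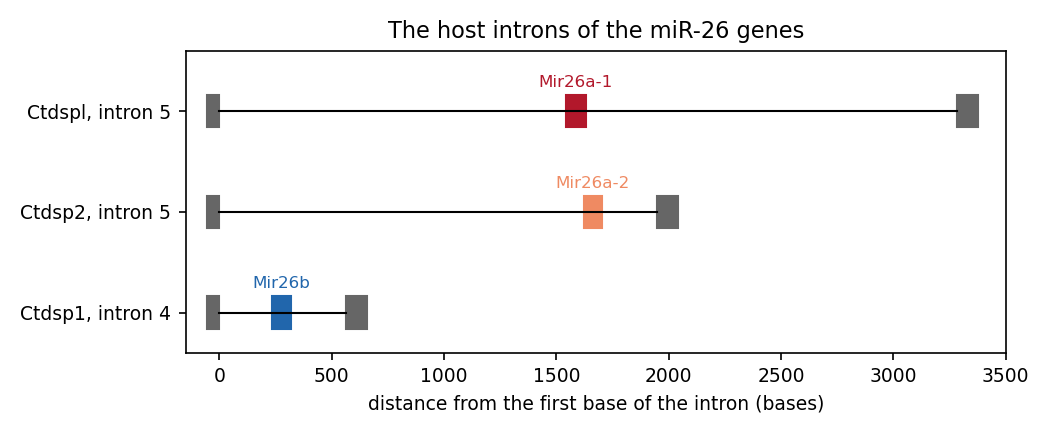
The host introns of the 3 miR-26 genes to scale, aligned at the first base of the intron; the x axis is the distance in bases, grey boxes are the exons on either side and coloured boxes the hairpins. The flanking exons are 57 and 93 bases in each host, while the introns are 3283, 1946 and 564 bases long.

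Mir26b, in Ctdsp1, carried nearly all counts of the family. It had 53330 counts in replicate 2 and 27660 in replicate 1. Scaled to the library total of own-strand gene counts as CPM (counts per 1000000), this was 10101 in replicate 2 (95% Poisson interval 10015 to 10187) and 6281 in replicate 1 (6207 to 6355), with a mean of 8191 ± 2701 CPM (SD, n = 2). The intervals here and below cover counting error only, and they do not overlap. Mir26b ranked 23rd of 2202 genes in replicate 2 and 32nd in replicate 1. It took 1.01% of all counts in replicate 2 and 0.628% in replicate 1.

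Mir26a-2, in Ctdsp2, was the steadier of the Mir26a genes. It had 448 counts in replicate 2 and 542 in replicate 1, or 84.9 CPM (77.2 to 93.1) in replicate 2 and 123 CPM (113 to 134) in replicate 1. The mean was 104.0 ± 27.0 CPM (SD, n = 2), with rank 211 in replicate 2 and rank 183 in replicate 1.

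Mir26a-1, in Ctdspl, was far lower in replicate 2. It had 50 counts in replicate 2 and 932 in replicate 1, or 9.47 CPM (7.03 to 12.5) in replicate 2 and 212 CPM (198 to 226) in replicate 1. Its SD of 142.9 CPM was larger than its mean of 110.5 CPM (n = 2), so the mean describes neither library. Its rank was 314 in replicate 2 and 164 in replicate 1. All 3 genes were above the 3 counts taken as the floor, which is 0.568 CPM in replicate 2 and 0.681 CPM in replicate 1. None of the 3 had a count on the opposite strand in either library. Having 10 or more counts in both libraries, as all 3 members do, holds for 411 of the 2202 genes (18.7%).

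**Figure D3:**
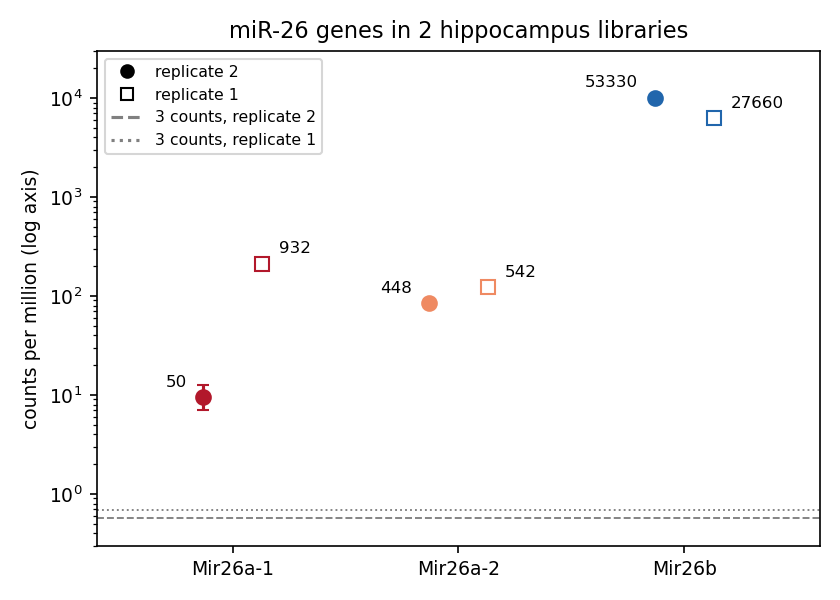
CPM on a log axis for the 3 miR-26 genes, with replicate 2 as filled circles left of replicate 1 as open squares, 95% Poisson intervals as bars (mostly smaller than the symbols) and the raw count beside each point; grey lines mark 3 counts. Mir26b is highest in both libraries, and the order of Mir26a-1 (50 and 932 counts) and Mir26a-2 (448 and 542) differs between the libraries.

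Together the family had 53828 counts in replicate 2 and 29134 in replicate 1. That was 1.02% of all counts in replicate 2 (95% exact binomial interval 1.01 to 1.03) and 0.662% in replicate 1 (0.654 to 0.669). Mir26b made up 99.1% of the family in replicate 2 and 94.9% in replicate 1. Mir26a-2 made up 0.832% in replicate 2 and 1.86% in replicate 1. Mir26a-1 made up 0.0929% in replicate 2 and 3.20% in replicate 1. Both Mir26a genes summed to 94.3 CPM in replicate 2 and 335 CPM in replicate 1. How reads in the shared stretch were counted was not tested, and with the arms not separated these shares do not compare miR-26a-5p with miR-26b-5p.

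The order of counts was therefore Mir26b first, with the Mir26a genes changing places. Mir26b had 1067 times the counts of Mir26a-1 in replicate 2 (95% interval 809 to 1437) and 29.7 times in replicate 1 (27.8 to 31.7). It had 119 times the counts of Mir26a-2 in replicate 2 (108 to 131) and 51.0 times in replicate 1 (46.9 to 55.7). Mir26a-2 had 8.96 times the counts of Mir26a-1 in replicate 2 (6.68 to 12.3) and 0.582 times in replicate 1 (0.522 to 0.647). The means of the Mir26a genes, ranked 196 and 198, do not differ beyond the spread between libraries. The hairpins are 84 to 90 bases long, so a level per length would move these ratios by at most 1.07 times.

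The libraries were set against each other gene by gene as a log2 ratio of replicate 2 over replicate 1, after scaling by TMM and with 1 CPM added. Mir26b had a log2 ratio of 0.67 (counting interval of the ratio without added CPM 0.65 to 0.69), a 1.59-fold higher level in replicate 2. Mir26a-2 had a log2 ratio of -0.55 (-0.74 to -0.37). Mir26a-1 had a log2 ratio of -4.36; without the added CPM it was -4.50 (-4.94 to -4.09), which is a level 22.6-fold higher in replicate 1 (17.0 to 30.7). The 3 genes thus did not differ between the libraries in the same direction.

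Against all genes with 10 or more counts, Mir26b and Mir26a-2 lay within the middle of the ratios and Mir26a-1 at the low end. Of 504 such genes 88 (17.5%) were at least 2-fold apart between the libraries, 61 of them higher and 27 of them lower in replicate 2, the lower ones being 5.36%. Of the 3 members 1, Mir26a-1, was past 2-fold, and it was lower in replicate 2. The middle 90% of genes had log2 ratios between -1.02 and 1.65 around a median of 0.05, and the whole range was -4.36 to 5.18. Mir26a-1 held the lowest value of the 504. By size of the ratio without sign, Mir26a-1 was 3rd, Mir26b 163rd and Mir26a-2 206th. Since Mir26a-1 was chosen with this ratio known, its place is a description.

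**Figure D4:**
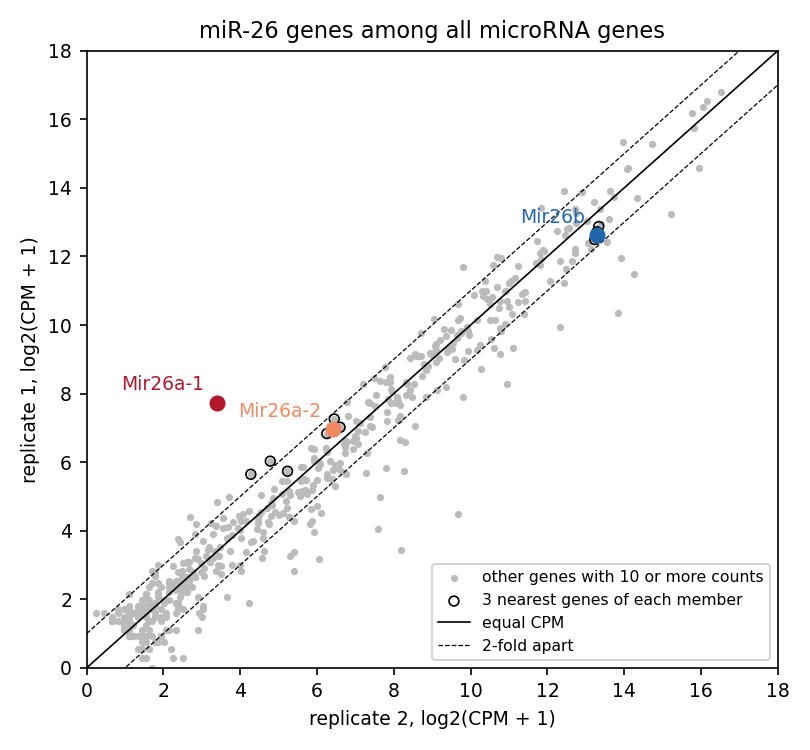
Each of the 504 genes with 10 or more counts as log2(CPM + 1) in replicate 2 (x axis) and replicate 1 (y axis), with the miR-26 genes in colour, the 3 nearest genes of each as open circles, a solid line of equal CPM and dashed lines 2-fold apart. Mir26b and Mir26a-2 lie between the dashed lines; Mir26a-1 lies far above them, at 9.47 CPM in replicate 2 and 212 CPM in replicate 1.

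The genes with the most similar pair of values were found by distance on the log2(CPM + 1) scale over the 2 libraries. Nearest to Mir26b were Mir30d (distance 0.104), Mir137 (0.141), a microRNA of neurons, and Mir328 (0.259). Mir30d had 10034 CPM in replicate 2 and 6747 CPM in replicate 1. Nearest to Mir26a-2 were Mir500 (0.187), Mir30c-1 (0.208) and Mirlet7a-2 (0.305). Mir26a-1 had no close neighbour: the nearest were Mir669l (2.20), Mir135a-2 (2.27) and Mir1188 (2.72), and Mir669l had 26.5 CPM in replicate 2 and 64.3 CPM in replicate 1. By mean CPM, Mir26b stood between Mir330 and Mir195a, Mir26a-1 between Mir331 and Mir377, and Mir26a-2 between Mir377 and Mir181a-2. Likeness over 2 libraries rests on 2 values for each gene. For Mir26a-1 these are the values it was chosen by, so its lack of a close neighbour is not separate from its ratio.

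Other pairs of genes with an identical mature sequence give the setting for Mir26a-1 and Mir26a-2. The RefSeq table as matched here gave 61 such pairs of counted genes. Of these, 24, made of 44 genes, had 10 or more counts for each gene in total and at least 1 in each library. The let-7a genes are not paired with each other among the 24, so the set may not be complete. The Mir26a pair had a log2 ratio of Mir26a-1 over Mir26a-2 of -3.16 in replicate 2 and 0.78 in replicate 1, a difference of -3.95. In the other 23 pairs the median size of that difference was 0.45, and the largest was 2.92 for Mir181a-1 and Mir181a-2. The order of the counts within the pair changed between the libraries in 1 of 24 pairs (4.17%), and that is the Mir26a pair. These differences come from the contrast that chose Mir26a-1, and the pairs share genes, so no test is given.

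**Figure D5:**
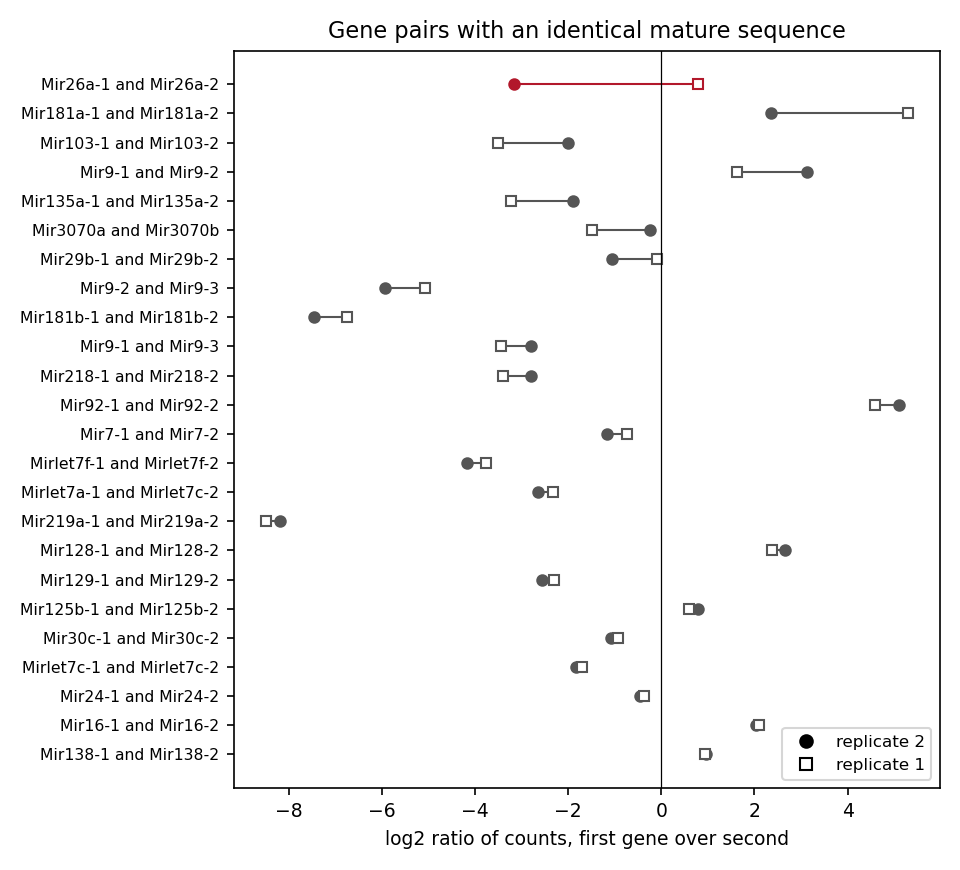
The log2 ratio of counts between the genes of each of 24 pairs with an identical mature sequence, replicate 2 as filled circles and replicate 1 as open squares, ordered by the gap between the libraries. The Mir26a pair, in red at the top, has its points on either side of the line of equal counts, at -3.16 in replicate 2 and 0.78 in replicate 1, and the other 23 pairs stay on the same side of it.

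MicroRNA paralogues that sit in paralogous hosts, as the miR-26 genes do, were read from a list of 15 genes. Of these, 14 lie in an intron of a host on their strand in GENCODE M21 and 12 had 10 or more counts in both libraries, beside 18.7% of all genes. Mir26b stood above 14 of the 15 by mean CPM. The exception was Mir128-1, a neuronal microRNA in R3hdm1, with 11949 CPM in replicate 2 and 5440 CPM in replicate 1 (8694 ± 4603, SD, n = 2), a mean within the spread of Mir26b. By mean CPM, Mir26a-1 and Mir26a-2 each stood below 5 of the 15: Mir128-1, Mir107, Mir128-2, Mir204 and Mir218-2. The mean of Mir26a-1 describes neither library. In replicate 1 (212 CPM) it stood below the same 5. The order with Mir218-2 there is within counting error, at 932 counts for Mir26a-1 and 933 for Mir218-2. In replicate 2 (9.47 CPM) Mir26a-1 was also below Mir148b, Mir152, Mir190a, Mir218-1 and Mir103-2 (12.1 CPM). Mir26a-2 was also below Mir148b in replicate 2. Mir107, in Pank1, had 2877 ± 1568 CPM, against 21.5 ± 13.3 CPM for Mir103-2 in Pank2 and 2.88 ± 0.216 CPM for Mir103-1 in Pank3 (SD, n = 2 each). Mir103-1 and Mir103-2 have an identical mature sequence, as do Mir128-1 and Mir128-2, of which Mir128-2 had 1471 ± 598 CPM, and Mir218-1 and Mir218-2, with 28.9 ± 12.7 CPM and 239 ± 37.8 CPM (SD, n = 2 each). Over the 14 list genes with 10 or more counts in total the median log2 ratio was 0.32, with 2 genes at least 2-fold higher and 2 at least 2-fold lower in replicate 2, beside 17.5% past 2-fold and a median of 0.05 over all genes. Of the 15, 9 share 20 bases with another microRNA gene.

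The Ctdsp hosts act with REST, and the 13 microRNA genes reported as REST targets were placed beside the miR-26 genes. Mir26b stood below 3 of them, Mir139 (84408 ± 15431 CPM), Mir132 (20543 ± 4655 CPM), an activity-induced microRNA of neurons, and Mir29a (10528 ± 2605 CPM; SD, n = 2 each). The means of Mir29a and Mir26b were closer than their SD, but Mir29a was the higher in both libraries. It had 12370 CPM against 10101 CPM for Mir26b in replicate 2, and 8686 CPM against 6281 CPM in replicate 1. By mean CPM the Mir26a genes stood below 6 of the 13. In replicate 2 Mir26a-1 (9.47 CPM) was also below Mir9-3, Mir29b-1 and Mir9-1, and Mir26a-2 was also below Mir9-3. In replicate 1 both stood above Mir153 (95.4 CPM). Of the list, 9 had 10 or more counts in both libraries, beside 18.7% of all genes. Over the 11 with 10 or more counts in total the median log2 ratio was 0.09, and 1, Mir153 at 1.68, was at least 2-fold higher in replicate 2 and 0 were at least 2-fold lower, beside 17.5% past 2-fold either way over all genes. The 3 Mir124a genes share 20 bases with each other and were at or near 0, with 8 counts in replicate 2 and 11 in replicate 1 for the highest of them, Mir124a-1.

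Matches to the miR-26 seed in the hosts' own messages were looked for in the longest annotated 3′ untranslated region of each host on the coding strand. The same was done for Ctdspl2, which belongs to the host family but is not a host. The motif was TACTTGA, the complement of bases 2 to 8. Ctdsp2 holds it once in 3489 bases, starting 1080 bases after the stop codon, and Ctdspl2 once in 3014 bases, starting 2115 bases after it. Ctdspl holds 0 in 3349 bases and Ctdsp1 holds 0 in 1701 bases. The sites are shown with their surroundings as DNA, capitals marking the motif:
Ctdsp2: gtgttgctctTACTTGAtttgcca
Ctdspl2: gttgacaatgTACTTGAtcaggaa
Neither match is followed by the A that makes the 8-base site TACTTGAA. Over 21020 genes 9.67% hold the motif, and among genes with untranslated regions of similar length the share is 23.4% for Ctdsp2 and 20.0% for Ctdspl2, so a single match is common at these lengths. A match is a run of letters and does not show binding, and no match says only that these letters are not in that region.

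Library depth and tissue markers give the limits of these values. Replicate 2 had 5279877 and replicate 1 had 4404040 own-strand gene counts, which is 34.6% of the reads of replicate 2 and 35.3% of those of replicate 1. Reads that match several places were 46.5% of replicate 2 and 40.3% of replicate 1. Whether miR-26a-5p reads are among them was not tested. Of the neuronal markers 5 of 8 had 10 or more counts in both libraries, with Mir124a-3 at 0, and their sum was 45844 CPM in replicate 2 and 39807 CPM in replicate 1. Its largest members went opposite ways, Mir132 with a log2 ratio of -0.48, Mir128-1 with 1.12 and Mir137 with 0.72. The vessel wall markers, 3 of 3 with 10 or more counts in both, summed to 43835 CPM in replicate 2 and 16250 CPM in replicate 1. That gap comes from Mir126a, with 37937 CPM in replicate 2 and 9729 CPM in replicate 1, while Mir143 had 5658 CPM in replicate 2 and 6311 CPM in replicate 1, and the median log2 ratio of the list was 0.18. The oligodendrocyte markers (2 of 2) summed to 5649 CPM in replicate 2 and 5809 CPM in replicate 1, and those of choroid plexus (3 of 4) to 1302 CPM in replicate 2 and 754 CPM in replicate 1. Red blood cell markers (2 of 2) summed to 95.6 CPM in replicate 2 and 43.8 CPM in replicate 1, and those of microglia and leukocytes (2 of 2) to 95.6 CPM in replicate 2 and 57.2 CPM in replicate 1. The part of these marker differences and of the multimapping share in the differences of the miR-26 genes was not tested. Nor was that of CAST/EiJ alleles, which both libraries carry as the same hybrid. In bulk tissue, fewer cells of a type and less RNA per cell cannot be told apart.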

How the data were processed

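The authors deposited raw counts per microRNA gene, 1 file per library, on mm10 with the GENCODE M21 annotation, per the deposited notes. Which aligner was used is not given in the sources used here. Count columns have no names, and their meaning (either strand, strand of the gene, opposite strand) was read from the values. Lines that name no gene held 65.4% of the reads of replicate 2 and 64.7% of replicate 1 and were left out of library sizes.

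Own-strand counts of all 2202 genes were divided by their library total (CPM). Log2 ratios used TMM factors from edgeR 4.0.16 in R 4.3.3 (1.006 for replicate 2 and 0.994 for replicate 1) fitted where the 2 libraries summed to 10 or more, with 1 CPM added. With 1 group no contrast exists, so no edgeR test was run. Intervals are 95% exact Poisson for levels and exact binomial (Clopper-Pearson) for shares and ratios. The ratio step was run on simulated Poisson counts with known folds. Its pass limit left out the largest simulated decrease, the size nearest to that of Mir26a-1, so it does not check a ratio of that size. Sequences are RefSeq's for GRCm38.p6, identical for the hairpins to GENCODE's. Untranslated regions of similar length were those at least 0.8 times as long as the host's, and the host's at least 0.8 times as long as theirs. Calculations used Python 3.11.15, scipy 1.17.1, Biopython 1.88 and DESeq2 1.42.0.

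The members, lists and tests were chosen with earlier results of these data known. Named genes are the members, genes with their seed, both lists, the 3 nearest genes and those next in rank to each member; genes named from the pairs with an identical mature sequence (Mir181a-1) and from the seed of the 3p arms were added after their values were seen. Alternatives were the denominator, scaling, count minimum, added CPM, strand column, window and seed length, and each library left out.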

Additional observations from a re-analysis of the deposited data

How the results depend on the processing

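No paired analysis was possible because there is 1 group. Of 61 recomputed values 55 were counted as unchanged. For levels and ratios this means the same direction and a move below the spread between the libraries or the counting interval. With 2 libraries, leaving 1 out moves a mean by less than their SD whatever the values, so those values could not come out otherwise. The gene counts, window shares and seed count have no spread between libraries, so the 55 of 61 is not a measure of robustness. With all reads of the file as the denominator the mean was 36.4 CPM for Mir26a-2 and 2859 CPM for Mir26b, lower because the total is larger. The log2 ratio of Mir26b, 0.67 in the text, was 0.72 from the either-strand column, 0.62 with DESeq2 size factors and 0.53 over genes of at least 100 counts. Its own counts, 53330 in replicate 2 and 27660 in replicate 1, were the same in each of these settings, and only the scaling of the libraries differed. The log2 ratio of Mir26a-1 lay between -4.49 and -4.32. Mir26a-2 over Mir26a-1, 2.28 as a geometric mean, was 0.582 to 8.96 when either library was left out, and without replicate 2 Mir26a-1 was the higher. The mean of Mir26a-1 was 212 CPM without replicate 2 and 9.47 CPM without replicate 1. The number of genes at least 2-fold apart lay between 63 and 114 over the alternatives. The 63 came from the minimum of 100 counts, which compares fewer genes, so these numbers are not shares of the same total. The shares of unique windows changed by under 10 percentage points at 16, 18 and 22 bases, and were the same when all GENCODE M21 transcripts were searched, an alternative added after seeing the data. A search of the whole genome was not run. With 2 libraries, the spread itself is poorly known.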
